A study of Mus musculus with 7 samples.

Results

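The Hox cluster genes are the rows of the deposited ChIP-seq profiles whose gene symbol is Hoxa, Hoxb, Hoxc or Hoxd followed by digits. The rule used the symbol alone and no measured value. It found 43 rows, 1 per transcription start site (TSS), for 39 genes, among the 36733 rows of the Flag ChIP files and the 22704 rows of the p400 files. Hoxa3, Hoxb3, Hoxc6 and Hoxd3 have a pair of rows each, called upstream TSS and downstream TSS here. Hoxa lies on chromosome 6, Hoxb on 11, Hoxc on 15 and Hoxd on 2, with 12, 11, 10 and 10 rows.

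The study asked whether the deacetylase Hdac6 is needed for binding of the Tip60-p400 chromatin remodeling complex in mouse embryonic stem cells (ESCs), and the 7 libraries are 1 per condition. Flag ChIP was done on an E14-derived line whose endogenous Tip60 carries a C-terminal H3F tag (histidine and Flag epitopes), upon GFP KD (the control knockdown) or Hdac6 KD, and on a line with the same tag on endogenous Hdac6, upon GFP KD or Tip60 KD. E14 ESCs without a tag, for which the labels name no knockdown, gave the Flag background. ChIP with an antibody to endogenous p400 was done upon GFP KD and Hdac6 KD, and has no background library here. Knockdown was by lentiviral shRNA, and the knockdown cells were taken 72 hr after infection. The library labelled Tip60 KD has a title that names Tip60 KD, but its genotype label names Hdac6 KD. It was grouped by its title, and no value here measures a knockdown. With 1 library per condition there are no replicates. All intervals and p-values below cover the sampling of reads only and compare libraries, not conditions.

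Hox genes encode homeodomain transcription factors that give cells their position along the body axis. Genes of a cluster stand in the order in which they are used, with low numbers (anterior genes) used first and toward the head, and the highest numbers (posterior genes) last and toward the tail. In ESCs the clusters are mostly silent, and their CpG-rich promoters are well-known sites of Polycomb binding. Tip60 is the acetyltransferase of the complex and p400 its remodeling ATPase.

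The promoter windows of the Hox rows (−500 to 500 bp of the TSS, mm9) had a median GC content of 57.2% and 57 CpG, against 53.0% and 25 CpG over all rows with sequence. The 250 bases upstream of the TSS held a median of 12 CpG (lowest 1, highest 48), against 6 over 36723 rows. A CG was present in all 43 Hox windows and in 92.4% of all windows of that length. The upstream sequence is shown for the anterior and posterior ends of Hoxd and for Hoxa13, since these promoters recur in the results below, and for Hoxc4, which held the lowest number of CpG. It was read from mm9, 5′ to 3′ on the gene's strand, and runs from −250 to −1. CpG dinucleotides are in capitals. The windows are chr2:74600787-74601036 (plus strand) for Hoxd1, chr6:52210875-52211124 (minus) for Hoxa13, chr2:74506117-74506366 (plus) for Hoxd13 and chr15:102864148-102864397 (plus) for Hoxc4.
Hoxd1: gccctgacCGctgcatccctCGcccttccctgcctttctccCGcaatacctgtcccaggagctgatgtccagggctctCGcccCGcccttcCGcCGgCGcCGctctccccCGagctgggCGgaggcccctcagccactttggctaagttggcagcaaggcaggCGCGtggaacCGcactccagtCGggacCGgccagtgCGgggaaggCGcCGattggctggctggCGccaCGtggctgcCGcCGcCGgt
Hoxa13: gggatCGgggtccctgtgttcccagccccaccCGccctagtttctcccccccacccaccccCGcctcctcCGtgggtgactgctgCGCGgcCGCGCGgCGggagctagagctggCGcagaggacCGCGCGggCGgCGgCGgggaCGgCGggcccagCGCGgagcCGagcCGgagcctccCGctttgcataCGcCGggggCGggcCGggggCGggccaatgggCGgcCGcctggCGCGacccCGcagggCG
Hoxd13: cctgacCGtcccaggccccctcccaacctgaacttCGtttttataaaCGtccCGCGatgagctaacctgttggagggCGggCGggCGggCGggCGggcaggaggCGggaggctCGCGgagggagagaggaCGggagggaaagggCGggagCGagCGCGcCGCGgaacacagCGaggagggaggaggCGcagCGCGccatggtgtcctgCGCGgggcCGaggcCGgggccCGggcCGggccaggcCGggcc
Hoxc4: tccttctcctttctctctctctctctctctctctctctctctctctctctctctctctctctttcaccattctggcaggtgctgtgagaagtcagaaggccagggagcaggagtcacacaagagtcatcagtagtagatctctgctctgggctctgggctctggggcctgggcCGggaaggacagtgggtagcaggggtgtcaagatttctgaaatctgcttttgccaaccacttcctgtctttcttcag
These windows hold 24, 35, 31 and 1 CpG. The first 3 end at an annotated transcript start and overlap no annotated exon of their strand. The window of Hoxc4 also overlaps no annotated exon of its strand, and holds a run of CT repeats near its 5′ end. Its TSS lies inside an annotated Hoxc4 exon, at −428 bp of the nearest annotated start. Whether this window is promoter sequence was not tested. Reads in simple repeats were removed by the authors.

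Hox TSSs stand close together, so it was checked first which rows are separate measurements. No pair of Hox rows lay within 1000 bp. The closest pair, the downstream TSS of Hoxa3 and the TSS of Hoxa5, lay 3649 bp apart and shared only the outer ends of their profiles. The promoter windows of the 43 rows therefore do not overlap, and reads were not counted in a pair of Hox rows. Rows without a gene symbol are closer. Of the 43 rows, 38 had no other row within 1000 bp, and 5 (among them the downstream TSS of Hoxa3, Hoxa11, Hoxb9 and the upstream TSS of Hoxd3) shared their window with 7 unnamed rows, of which 5 are on the opposite strand. At positions at most 10 bp apart, the untagged values of these pairs differed by less than 0.5 of the value of 1 read at 54.0% to 89.0% of positions.

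Not every row sits on a start of its gene in the GENCODE M1 annotation of mm9. In 15 rows the TSS is an annotated start, and in 34 it lies within 250 bp of one. Of all 43, 24 lie inside an exon of their gene away from a start, 1 in an intron (Hoxa7) and 3 outside the annotated gene (the upstream TSS of Hoxb3, Hoxb9 and Hoxc8). The farthest are the downstream TSS of Hoxa3 (12129 bp from an annotated start), Hoxb7 (−2069 bp, upstream) and Hoxb4 (2055 bp).

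Signal is coverage in ppm, scaled by the authors to the normalizing reads of each library. In every file 100% of the low values were whole multiples of the value of 1 read, to within 0.05 of that value, which gave normalizing totals of 9.2 to 31.4 M reads. Isolated reads covered 148 to 149 bp in the Hdac6 files and 299 bp in the others. An equal share of the normalizing reads therefore gives less signal in the Hdac6 files. For that reason ppm of Hdac6 is not set against ppm of another factor. Comparisons were made on reads recovered from the coverage, as ratios of scaled reads (reads divided by the normalizing total). Over all rows the median promoter held 8.21 to 20.7 reads. Over the Hox rows it held 18 reads in each p400 library, 12 in each Hdac6 library, 10 in the untagged library, and 10 and 7 for Tip60 upon GFP KD and Hdac6 KD.

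**Figure D1:**
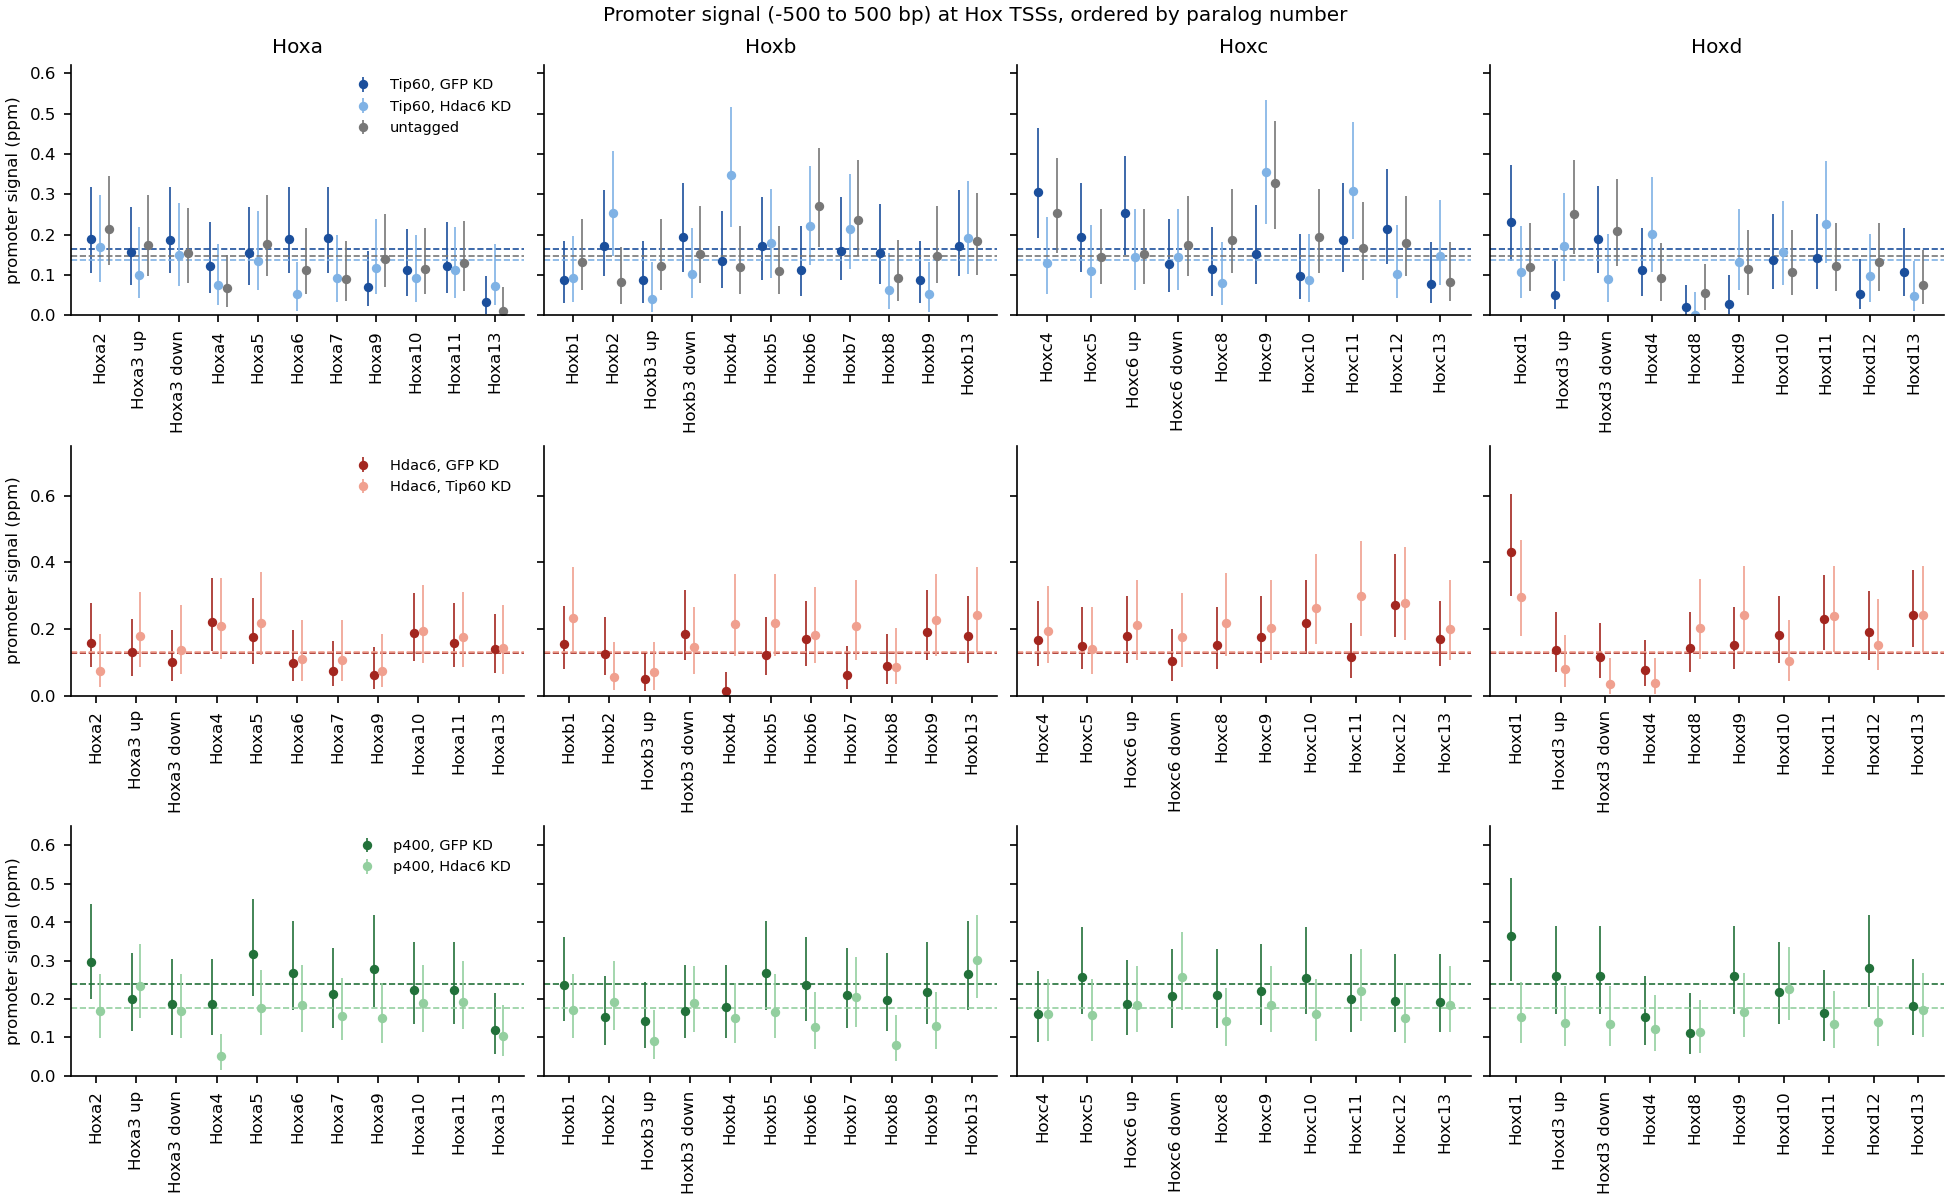
Promoter signal in ppm (vertical axes, −500 to 500 bp of the TSS) at 42 of the Hox rows, by cluster (columns) and in order of paralog number; upper row Tip60 and untagged, middle row Hdac6, lower row p400. Bars are 95% exact Poisson intervals of the read number and dashed lines the medians over all rows of each file. Most p400 points upon GFP KD lie below their dashed line, most Hdac6 points above theirs, and Hoxd1 stands highest in both.

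Tip60 signal upon GFP KD was low at the Hox promoters. The median was 0.142 ppm (range 0.0202 to 0.306), against 0.164 ppm over all rows, and 27 of the 43 rows lay below that all-row median. Only Hoxc4, with 0.306 ppm and 22 reads, was among the top 10% of the file. Hoxc4 was also among the top 10% of the untagged library (0.252 ppm, 20 reads), so its high value was not particular to the tagged line. The lowest Tip60 values were at Hoxd8 (0.0202 ppm, 1 read), Hoxd9 (0.0276 ppm, 2 reads) and Hoxa13 (0.0322 ppm, 2 reads). Hoxd8 and Hoxa13 were also among the lowest rows of the untagged library, with 4 and 1 reads.

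p400 signal upon GFP KD had a median of 0.212 ppm (range 0.112 to 0.363) at the Hox rows, against 0.239 ppm over all rows with a RefSeq identifier. Below that all-row median were 29 of 43 rows, and none reached the top 10%. The highest was the anterior gene Hoxd1 (0.363 ppm, 31 reads), at the 80.1 percentile. Hoxa5 (0.316 ppm) and Hoxa2 (0.297 ppm) were also high. Hoxd8 (0.112 ppm) and Hoxa13 (0.119 ppm) were lowest, with 10 reads each.

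Hdac6 signal stood otherwise. Upon GFP KD its median at the Hox rows was 0.154 ppm (range 0.0152 to 0.430), against 0.129 ppm over all rows, and only 14 of 43 rows lay below the all-row median. Hoxd1, a gene of the hindbrain and the front of the axis, had 0.430 ppm and 34 reads, at the 99.6 percentile of the file. Hoxc12 (0.272 ppm, 22 reads) and Hoxd13 (0.240 ppm, 19 reads) were also high. The lowest value was at Hoxb4, a gene known from blood stem cells, with 0.0152 ppm and 1 read. In the library labelled Tip60 KD the median was 0.193 ppm against 0.130 ppm over all rows, and 11 of 43 rows lay below the all-row median. Hoxc11 (0.297 ppm, 19 reads), Hoxd1 (0.295 ppm, 19 reads) and Hoxc12 (0.276 ppm, 18 reads) were highest there.

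The clusters differed little in p400 and more in Tip60 and Hdac6. Mean p400 signal upon GFP KD was 0.239 ppm at Hoxa (95% exact Poisson interval 0.210 to 0.271), 0.207 at Hoxb (0.179 to 0.238), 0.209 at Hoxc (0.179 to 0.242) and 0.225 at Hoxd (0.194 to 0.259), and all 4 intervals overlap. Mean Tip60 signal was highest at Hoxc with 0.172 ppm (0.143 to 0.205) and lowest at Hoxd with 0.107 ppm (0.0846 to 0.134), and these intervals do not overlap. The untagged library had the same cluster highest, Hoxc with 0.186 ppm (0.158 to 0.219), and 0.126 ppm at Hoxa and 0.128 ppm at Hoxd. Mean Hdac6 signal upon GFP KD was highest at Hoxd with 0.190 ppm (0.160 to 0.222) and lowest at Hoxb with 0.122 ppm (0.0999 to 0.148). Without Hoxd1 the Hoxd mean was 0.163 ppm, below the 0.170 ppm of Hoxc. In the library labelled Tip60 KD the order was another, with 0.218 ppm at Hoxc, 0.171 at Hoxb, 0.163 at Hoxd and 0.155 at Hoxa. Reads varied more between Hox rows than Poisson counts of 1 mean would, with a variance 1.22 (p400, GFP KD) to 2.95 (Tip60, Hdac6 KD) times the mean, and 2.11 times in the untagged library. Intervals from pooled reads are to that extent narrower than the differences between rows.

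Along the clusters, Tip60 signal upon GFP KD was lower at posterior than at anterior genes and Hdac6 signal was not. Mean Tip60 signal upon GFP KD was 0.161 ppm (0.138 to 0.187) over the 15 rows of paralog numbers 1 to 4, 0.154 ppm (0.128 to 0.182) over the 12 rows of 5 to 8 and 0.112 ppm (0.0936 to 0.133) over the 16 rows of 9 to 13. Upon Hdac6 KD Tip60 had no such order, with 0.142, 0.120 and 0.144 ppm. The untagged library gave 0.151, 0.150 and 0.139 ppm. Mean Hdac6 signal upon GFP KD was 0.154, 0.126 and 0.179 ppm, and in the library labelled Tip60 KD 0.147, 0.173 and 0.204 ppm. Mean p400 signal stayed between 0.218 and 0.224 ppm. Across the 43 rows, Spearman's correlation of signal with paralog number was −0.36 for Tip60, −0.14 for untagged, 0.24 for Hdac6 and −0.09 for p400, all upon GFP KD or without knockdown. The coefficient for Tip60 was −0.67 within Hoxa (12 rows), −0.53 within Hoxc (10 rows), −0.27 within Hoxd (10 rows) and 0.04 within Hoxb (11 rows). In the untagged library it was −0.50 within Hoxa, −0.18 within Hoxc, −0.32 within Hoxd and 0.36 within Hoxb, so in Hoxd it was no weaker than for Tip60. Median GC content also moved along the clusters, from 53.8% over numbers 1 to 4 and 55.0% over 5 to 8 to 59.7% over 9 to 13. Its part in these orders was not tested.

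**Figure D2:**
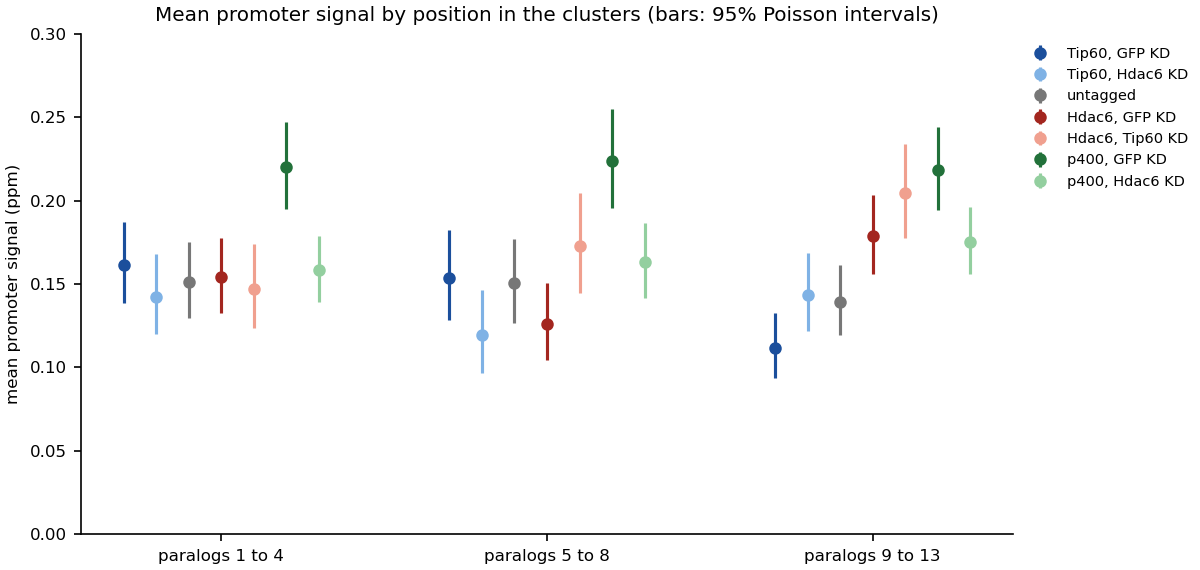
Mean promoter signal in ppm (vertical axis) over the Hox rows of paralog numbers 1 to 4 (15 rows), 5 to 8 (12 rows) and 9 to 13 (16 rows) in each library, with 95% exact Poisson intervals. Tip60 upon GFP KD goes from 0.161 to 0.112 ppm and Hdac6 in the library labelled Tip60 KD from 0.147 to 0.204 ppm, while p400 upon GFP KD stays between 0.218 and 0.224 ppm. Hdac6 values are on a shorter read span than the others.

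Signal followed GC content in another way at Hox promoters than over all rows. Over all rows, Spearman's correlation of promoter signal with GC content was 0.75 for Hdac6, 0.61 for p400, 0.34 for Tip60 (each upon GFP KD) and 0.15 for the untagged library. Over the 43 Hox rows it was 0.55 for Hdac6 but 0.03 for p400, −0.36 for Tip60 and −0.26 for the untagged library. These are descriptions across rows of 1 library each. Against rows of like GC content (bins 2.5 points wide), the Hox rows had 0.714 times the Tip60 signal, 0.789 times the p400 signal and 0.904 times the Hdac6 signal upon GFP KD, and 0.909 times the untagged signal. For Tip60 this ratio was 0.566 at Hoxd and 0.833 at Hoxc. For Hdac6 it was 1.02 at Hoxd and 0.773 at Hoxb.

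The profiles around the TSS had no Tip60 peak at Hox rows. Averaged over the 43 rows, promoter signal was 0.933 times the flank signal (1500 to 2000 bp on either side) for Tip60 upon GFP KD and 0.857 times for the untagged library, against 1.21 and 1.02 over all rows. For p400 upon GFP KD it was 1.10 times against 1.64 over all rows, and the p400 flank was 0.200 ppm at Hox rows and 0.155 ppm over all rows. For Hdac6 upon GFP KD it was 1.32 times against 1.60, and in the library labelled Tip60 KD 1.66 times against 1.64. After smoothing over 100 bp, the highest Hdac6 value within 1000 bp of the TSS lay at 400 bp downstream (0.203 ppm) upon GFP KD and at 180 bp (0.227 ppm) in the library labelled Tip60 KD. Over all rows it lay at 100 bp in both.

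**Figure D3:**
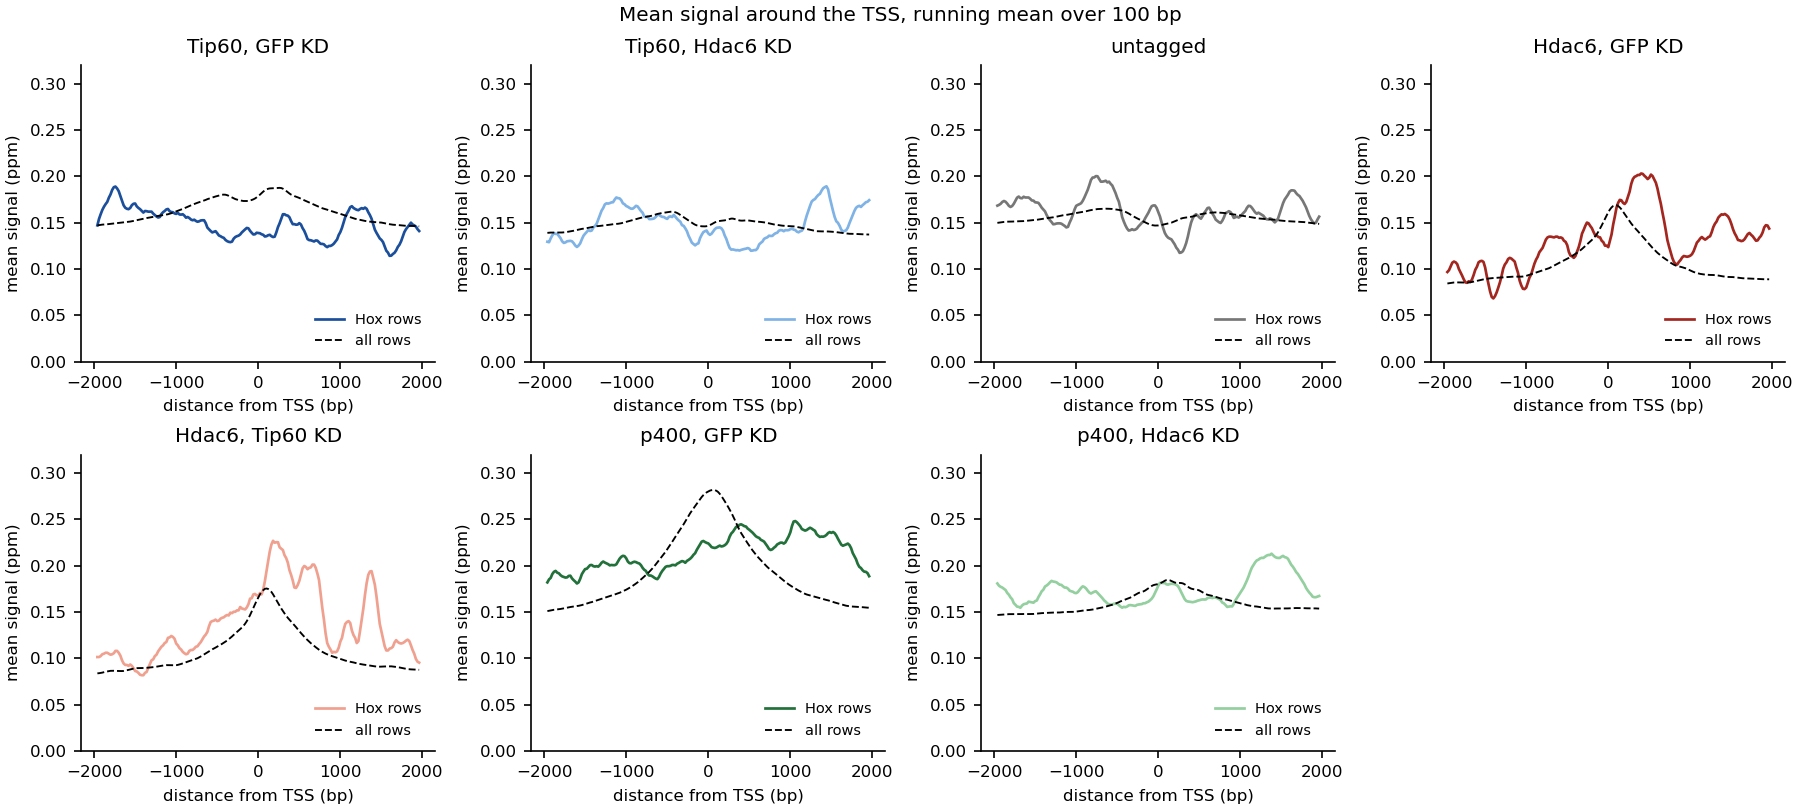
Mean signal in ppm (vertical axes) against distance from the TSS in bp (horizontal axes) over the 43 Hox rows (colored lines) and all rows of the file (dashed lines), 1 panel per library, as a running mean over 100 bp. Upon GFP KD the Tip60 and p400 lines of the Hox rows lack the central rise of the dashed lines, and the Hdac6 lines rise downstream of the TSS to 0.203 and 0.227 ppm.

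Reads in a window downstream of the TSS (−100 to 300 bp) were set against those upstream (−600 to −200 bp). The ratio over Hox rows was 1.02 for Tip60 upon GFP KD (95% exact Clopper-Pearson interval 0.825 to 1.27), 0.914 upon Hdac6 KD (0.732 to 1.14) and 0.904 in the untagged library (0.742 to 1.10). For Hdac6 it was 1.19 upon GFP KD (0.974 to 1.45) and 1.34 in the library labelled Tip60 KD (1.09 to 1.64), so the interval excludes 1 only in the latter. For p400 it was 1.13 upon GFP KD (0.967 to 1.32) and 1.12 upon Hdac6 KD (0.959 to 1.32). Downstream Hdac6 signal upon GFP KD was the higher in 22 of 43 Hox rows (51.2%), against 61.3% of all rows. By cluster it was higher in 7 of 10 Hoxc rows, 5 of 10 Hoxd rows, 5 of 12 Hoxa rows and 5 of 11 Hoxb rows.

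The first comparison asked where tagged Tip60 exceeded the untagged background. At Hox promoters it did not. The pooled reads were 440 for Tip60 upon GFP KD and 498 for untagged, a scaled ratio of 0.958 (95% exact Clopper-Pearson interval 0.841 to 1.09), against 1.17 over all rows, which lies above that interval. By cluster the ratio was 1.15 at Hoxa (0.887 to 1.49), 0.933 at Hoxb (0.718 to 1.21), 0.916 at Hoxc (0.716 to 1.17) and 0.830 at Hoxd (0.610 to 1.12). Along the clusters it was 1.07 (0.866 to 1.33) over paralog numbers 1 to 4, 1.00 (0.784 to 1.28) over 5 to 8 and 0.807 (0.639 to 1.02) over 9 to 13. No Hox row passed the two-sided exact test (binomial, conditional on both libraries' reads, p adjusted by Benjamini-Hochberg over all 36083 rows with reads), in which 1.37% of rows were called higher and 0.119% lower. At an unadjusted p under 0.05, 3 Hox rows were lower and 0 higher (6.98% in all, all rows 11.8% in either direction). By a fold rule (1.5-fold and at least 10 reads together), 8 of 41 Hox rows were higher (19.5%, all rows 29.8%) and 11 lower (26.8%, all rows 15.2%). The upstream TSS of Hoxd3 had the lowest p, with 4 Tip60 and 20 untagged reads, a ratio of 0.217 (0.0539 to 0.648) and an adjusted p of 0.0879 by the exact test. With rows of equal GC content as the reference, the pooled ratio was 0.791 (0.694 to 0.901).

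At the anterior ends, Tip60 reads upon GFP KD and untagged reads were 6 and 10 at Hoxb1, 22 and 20 at Hoxc4, and 17 and 10 at Hoxd1. The scaled ratios were 0.651 (0.194 to 1.98), 1.19 (0.621 to 2.31) and 1.84 (0.797 to 4.51). At the posterior ends they were 2 and 1 reads at Hoxa13, 13 and 14 at Hoxb13, 6 and 7 at Hoxc13, and 8 and 6 at Hoxd13. The ratios were 2.17 (0.113 to 128), 1.01 (0.436 to 2.31), 0.930 (0.258 to 3.23) and 1.45 (0.440 to 5.06). All 7 intervals include 1. Hoxd1, the Hox gene with the most p400 signal, had the highest of these anterior ratios.

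The second comparison set Hdac6 against the untagged library. Here Hox promoters had 530 reads for Hdac6 upon GFP KD and 498 for untagged, a scaled ratio of 2.13 (1.88 to 2.41), against 1.83 over all rows. The ratio was 2.92 at Hoxd (2.25 to 3.79), 2.37 at Hoxa (1.84 to 3.05), 1.81 at Hoxc (1.42 to 2.30) and 1.64 at Hoxb (1.26 to 2.14). In 39 of 43 rows it was above 1. The median log2 ratio of the Hox rows was 0.998, against 0.812 over all rows. The exact test called 12 Hox rows higher (27.9%, all rows 23.3%) and 0 lower (all rows 0.419%), over 36072 rows with reads. At an unadjusted p under 0.05, 20 Hox rows were higher and 0 lower (46.5% in all, all rows 34.9% in either direction). By the fold rule 30 of 43 rows were higher (69.8%, all rows 58.6%) and 2 lower (4.65%, all rows 11%).

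The ratio of Hdac6 to untagged reads rises with GC content over all rows, from 0.876 in the bin of 40 to 42.5% to 5.52 in that of 75 to 77.5%. Against rows of equal GC content the pooled ratio of the Hox rows was 1.03 (0.910 to 1.17), and 0 rows were called. The Hdac6 to untagged ratio of Hox promoters was thus not distinguishable, at this depth, from that of other promoters of their base composition.

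**Figure D4:**
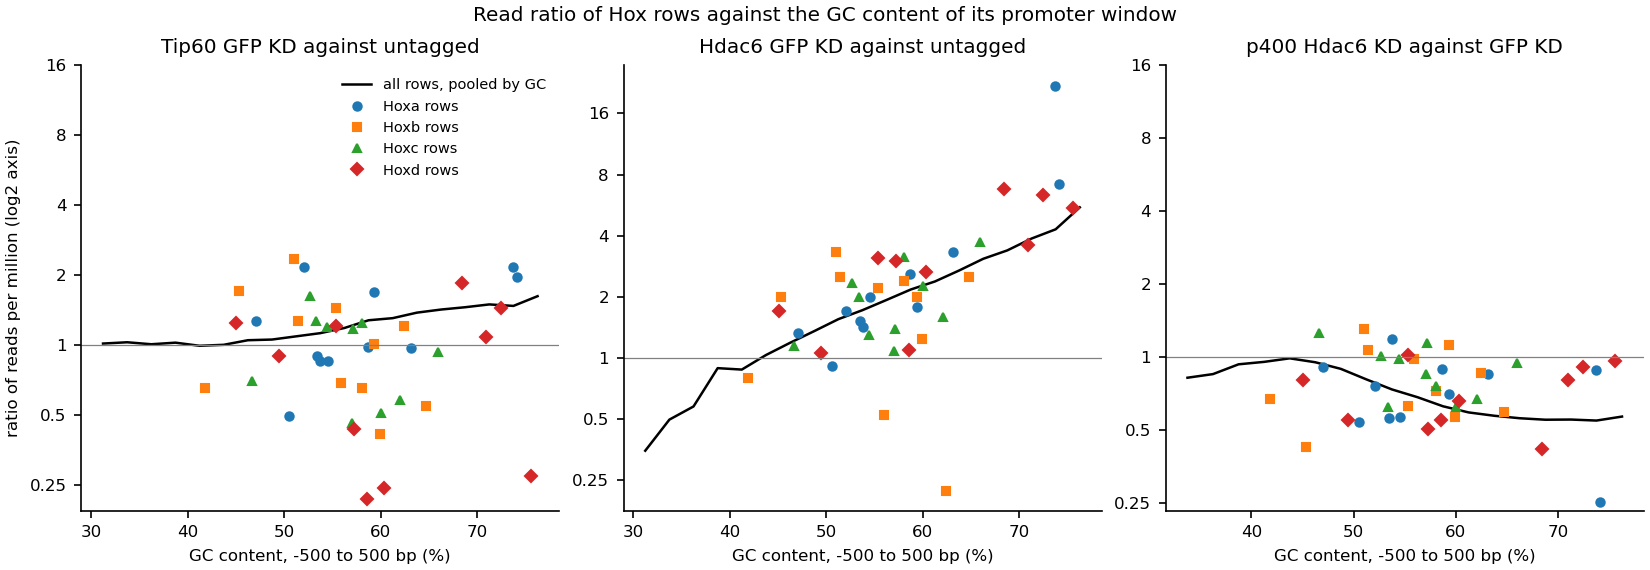
Ratio of scaled reads (vertical axes, log2 scale) of 42 of the Hox rows against the GC content of its promoter window in percent (horizontal axes), for Tip60 and Hdac6 against untagged and for p400 upon Hdac6 KD against GFP KD; black lines pool all rows in bins of 2.5 points. Hdac6 points follow the rising black line, many Tip60 points lie below theirs, and p400 points scatter about and above theirs.

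The 12 called rows included Hoxd1, Hoxd8, Hoxd10, Hoxd11, Hoxd12, Hoxd13, Hoxa4, Hoxa10, Hoxa13, Hoxc12 and Hoxc13. Hoxd1 had 34 Hdac6 and 10 untagged reads, a ratio of 6.79 (3.28 to 15.4) and the lowest adjusted p of 9.53e-07 by the exact test. Hoxa4 had 18 and 5 reads and a ratio of 7.19 (2.57 to 24.8). Hoxd13, a gene of digits and the urogenital tract, had 19 and 6 reads and a ratio of 6.33 (2.43 to 19.4). Hoxa13, its counterpart in Hoxa, had 11 reads and 1 read, a ratio of 22.0 whose interval runs from 3.19 to 946. The other called rows of this list had ratios of 2.997 (Hoxd12, 15 and 10 reads) to 5.49 (Hoxd8, 11 and 4 reads). Their adjusted p ranged from 0.00804 (Hoxd11) to 0.0409 (Hoxd12) by the exact test. All 5 rows with a GC content above 70% (Hoxa4, Hoxa13, Hoxd8, Hoxd11 and Hoxd13) were among those called, with 126, 128, 149, 124 and 118 CpG per promoter window.

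Of the cluster ends that were not called, Hoxb1 had 12 Hdac6 and 10 untagged reads (ratio 2.40, 0.949 to 6.19), Hoxb13 14 and 14 (2.00, 0.883 to 4.52) and Hoxc4 13 and 20 (1.299, 0.594 to 2.74). Hoxc13, a gene of hair and nail, had 13 and 7 reads and a ratio of 3.71 (1.38 to 10.98), with an adjusted p of 0.0224 by the exact test.

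The third comparison asked how Tip60 changed upon Hdac6 KD. Hox promoters had 385 Tip60 reads upon Hdac6 KD and 440 upon GFP KD, a scaled ratio of 0.975 (0.848 to 1.12), against 0.848 over all rows. The change over the Hox rows was thus −2.55% where that over all rows was −15.2%, and the interval just includes the latter. Neither library exceeded the untagged background on average. The mean promoter signal at Hox rows was 0.141 ppm upon GFP KD, 0.136 ppm upon Hdac6 KD and 0.147 ppm in the untagged library. By cluster the ratio was 0.742 at Hoxa (0.556 to 0.986), 1.17 at Hoxb (0.898 to 1.54), 0.927 at Hoxc (0.707 to 1.21) and 1.14 at Hoxd (0.826 to 1.58). In Hoxa 10 of 12 rows were below 1, with a median log2 ratio of −0.271, against −0.219 over all rows. Along the clusters the ratio was 0.887 (0.706 to 1.11) over paralog numbers 1 to 4, 0.785 (0.595 to 1.03) over 5 to 8 and 1.28 (1.01 to 1.63) over 9 to 13. Against rows of equal GC content the pooled ratio was 1.18 (1.03 to 1.36).

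No Hox row passed the exact test of Tip60 upon Hdac6 KD (all rows 0.444% lower and 0.0555% higher, over 36050 rows). At an unadjusted p under 0.05 were 2 Hox rows lower and 3 higher (11.6%, all rows 13.3% in either direction), a share near that of all rows. By the fold rule 13 of 39 rows were lower (33.3%, all rows 34.2%) and 11 higher (28.2%, all rows 15.1%). Hoxb4 went from 10 to 23 reads (ratio 2.56, 1.17 to 6.03) and Hoxc9, a gene of thoracic motor neurons, from 11 to 23 (2.33, 1.09 to 5.29). Hoxc9 was also the highest Hox row of the untagged library, with 26 reads. Hoxd9 went from 2 to 9 reads (5.01, 1.04 to 47.7). Hoxa6 went from 14 to 3 reads (0.239, 0.0440 to 0.855) and Hoxc4 from 22 to 8 (0.405, 0.156 to 0.945). The lowest adjusted p over the Hox rows was 0.228 by the exact test.

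At the anterior ends, reads went from 6 to 6 at Hoxb1 (ratio 1.11, 0.298 to 4.17) and from 17 to 7 at Hoxd1 (0.459, 0.161 to 1.16). At the posterior ends they went from 2 to 5 at Hoxa13 (2.78, 0.456 to 29.2), from 13 to 13 at Hoxb13 (1.11, 0.476 to 2.61), from 6 to 10 at Hoxc13 (1.86, 0.611 to 6.21) and from 8 to 3 at Hoxd13 (0.418, 0.0714 to 1.74). These 6 intervals include 1. Hoxd8 had 0 reads upon Hdac6 KD, which allows up to 3 reads or 0.0459 ppm.

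The fourth comparison asked the same of p400, with the deepest libraries. Hox promoters had 765 p400 reads upon Hdac6 KD and 814 upon GFP KD, a scaled ratio of 0.758 (0.686 to 0.838), a change of −24.2%. Over all rows the ratio was 0.688, a change of −31.2%, which the interval just includes. In 35 of 43 rows the ratio was below 1. The median log2 ratio of the Hox rows was −0.390, against −0.477 over all rows. By cluster the pooled ratio was 0.669 at Hoxd (0.539 to 0.829), 0.712 at Hoxa (0.590 to 0.858), 0.803 at Hoxb (0.654 to 0.984) and 0.869 at Hoxc (0.706 to 1.07). Along the clusters it was 0.724 (0.609 to 0.861), 0.740 (0.611 to 0.896) and 0.804 (0.683 to 0.947) for paralog numbers 1 to 4, 5 to 8 and 9 to 13. Over all rows the ratio falls with GC content, from 0.956 in the bin of 40 to 42.5% to 0.569 in that of 75 to 77.5%. Against rows of equal GC content the Hox ratio was 1.10 (0.998 to 1.22), and with equal promoter totals of both libraries also 1.10 (0.997 to 1.22). Both references are taken from all rows, whose p400 reads fell themselves. These ratios place the fall at Hox rows beside that of other rows and are no gain of p400. Both intervals include 1.

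The exact test called 2 Hox rows lower upon Hdac6 KD (4.65%, all rows 13.3%) and 0 higher (all rows 0.316%), over 22474 rows. At an unadjusted p under 0.05 were 4 rows, all lower (9.30%, all rows 27.8% in either direction). By the fold rule 15 of 43 rows were lower (34.9%, all rows 44.8%) and 0 higher (all rows 8.19%). The called rows were Hoxa4, which went from 16 to 5 reads (ratio 0.252, 0.0722 to 0.720, adjusted p = 0.0345 by the exact test), and Hoxd1, which went from 31 to 16 (0.416, 0.213 to 0.785, adjusted p = 0.0390 by the exact test). Under the GC reference 0 rows were called. Hoxa4 and Hoxd1 were also among the rows called for Hdac6 against untagged, as were 27.9% of Hox rows and 23.3% of all rows. Their promoter windows had a GC content of 74.1% and 68.4%. A link between the calls of the 2 comparisons was not tested.

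None of these other ends was called, and all of their intervals include 1. Hoxb1 went from 20 to 18 p400 reads (0.726, 0.362 to 1.44) and Hoxc4 from 14 to 17 (0.980, 0.454 to 2.15). Hoxa13 went from 10 to 11 (0.887, 0.342 to 2.33), Hoxb13 from 23 to 32 (1.12, 0.636 to 2.01), Hoxc13 from 17 to 20 (0.949, 0.472 to 1.93) and Hoxd13 from 16 to 18 (0.907, 0.437 to 1.90). Hoxb13, a gene of the tail bud and prostate, was the highest Hox row upon Hdac6 KD, with 0.302 ppm at the 97.2 percentile of that file.

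The fifth comparison set Hdac6 in the library labelled Tip60 KD against GFP KD. Hox promoters had 481 and 530 reads, a scaled ratio of 1.14 (1.005 to 1.29), against 1.025 over all rows, which the interval includes. In 31 of 43 rows the ratio was above 1. The median log2 ratio of the Hox rows was 0.217, against 0.0593 over all rows. The pooled ratio was 1.42 at Hoxb (1.09 to 1.86), 1.303 at Hoxc (1.02 to 1.66), 1.06 at Hoxa (0.823 to 1.36) and 0.868 at Hoxd (0.669 to 1.12). Without Hoxb4 the pooled ratio was 1.11 with an interval that includes 1 (0.977 to 1.26), and that of Hoxb without Hoxb4 was 1.27 (0.959 to 1.68). No Hox row passed the exact test over 35850 rows (all rows 0% lower and 0.00279% higher, a single row). At an unadjusted p under 0.05 were 3 rows, all higher (6.98%, all rows 3.67% in either direction). By the fold rule 5 of 41 rows were lower (12.2%, all rows 16.7%) and 7 higher (17.1%, all rows 18.4%).

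The 3 rows were Hoxb4, with 1 read upon GFP KD and 14 in the library labelled Tip60 KD (ratio 17.6, interval 2.68 to 743), Hoxc11 with 9 and 19 (2.65, 1.14 to 6.65) and Hoxb7 with 5 and 13 (3.27, 1.09 to 11.7). The lowest adjusted p was 0.705 by the exact test, at Hoxb4. Hoxb4 and Hoxb7 are 2 of the 3 rows farther than 1000 bp from an annotated start. Among the anterior ends, reads went from 12 to 15 at Hoxb1 (1.57, 0.686 to 3.67), from 13 to 12 at Hoxc4 (1.16, 0.483 to 2.75) and from 34 to 19 at Hoxd1 (0.702, 0.378 to 1.27). Among the posterior ends they went from 11 to 9 at Hoxa13 (1.03, 0.376 to 2.73), from 14 to 15 at Hoxb13 (1.35, 0.606 to 3.01), from 13 to 13 at Hoxc13 (1.26, 0.536 to 2.94) and from 19 to 15 at Hoxd13 (0.991, 0.469 to 2.06). All 7 intervals include 1.

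**Figure D5:**
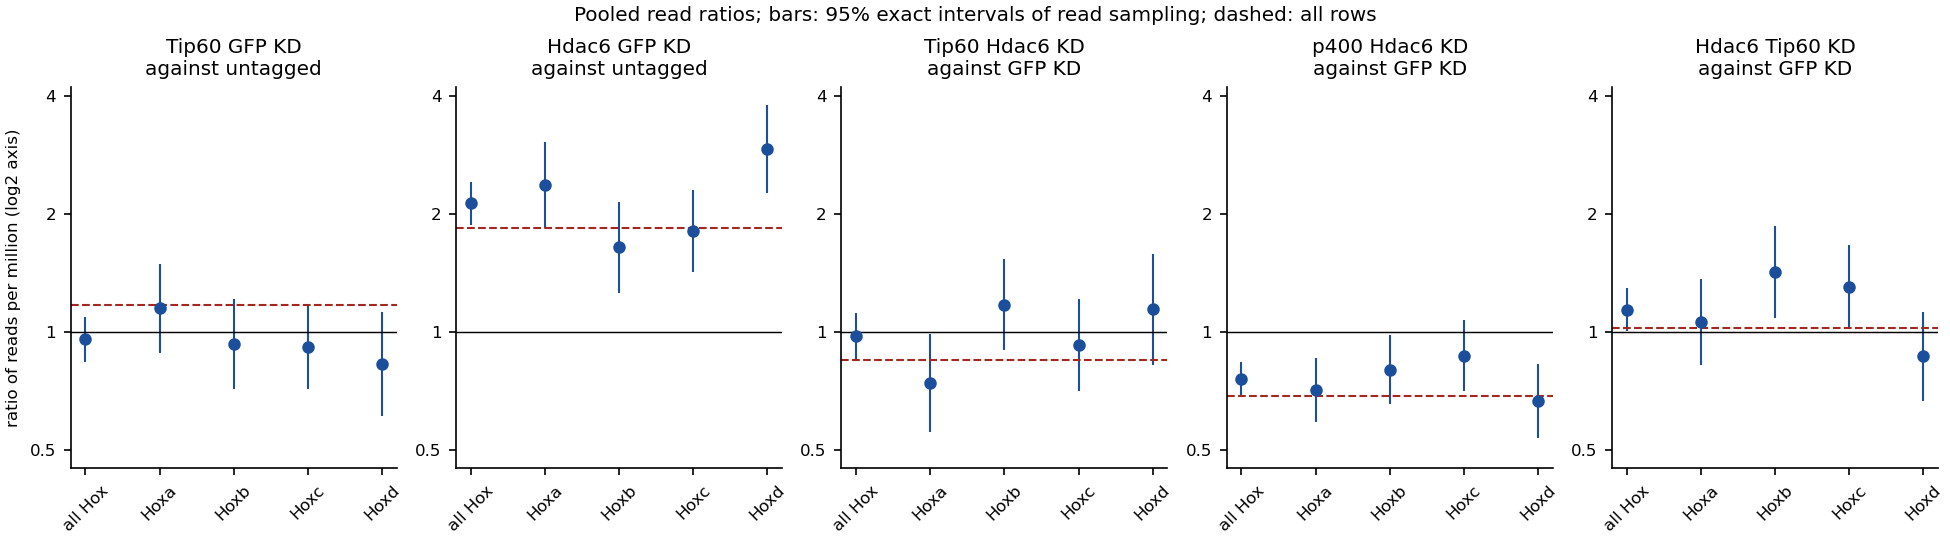
Ratio of pooled scaled reads (vertical axes, log2 scale) for each comparison, over all Hox rows and by cluster, with 95% exact Clopper-Pearson intervals; dashed lines give the ratio over all rows and solid lines equality. The Tip60 ratio against untagged over all Hox rows is 0.958 with the dashed line at 1.17, and the p400 ratio upon Hdac6 KD is 0.758 with the dashed line at 0.688.

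The Hox rows of the pair of Hdac6 libraries resembled each other more than those of other pairs. Spearman's correlation of promoter signal over the 43 rows was 0.58 between the Hdac6 libraries, 0.21 between the Tip60 libraries and 0.23 between the p400 libraries. Between Tip60 and Hdac6 upon GFP KD it was 0.08, between Tip60 and p400 0.10, and between Hdac6 and p400 0.19. Tip60 upon GFP KD and untagged gave 0.27. Some pairs of unlike factors stood above the Tip60 pair and the p400 pair. p400 upon Hdac6 KD gave 0.37 with Tip60 upon GFP KD and 0.34 with Tip60 upon Hdac6 KD. The untagged library gave 0.34 with p400 upon GFP KD and 0.34 with Tip60 upon Hdac6 KD. Every pair compares the same 43 rows, so the differences in GC content between rows (41.9% to 75.5%) enter both libraries of a pair, and the few reads per row limit every value.

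Genes beside the clusters, and genes that act with Hox proteins or on Hox promoters, were described for contrast, each by its most upstream RefSeq row. Of 18 listed neighbours of the clusters 17 were found, among them Skap2, Hibadh, Cbx1, Cbx5 and Hnrnpa1. Their median p400 signal upon GFP KD was 0.294 ppm, and the pooled ratio upon Hdac6 KD was 0.586 (0.510 to 0.672). The exact test called 5 of 17 rows lower (Skap2, Cbx1, Nfe2l1, Cbx5 and Hnrnpa1, all rows 13.3%) and 0 higher (all rows 0.316%). The pooled ratio of Tip60 to untagged was 1.38 (1.18 to 1.63). Hnrnpa1, an RNA-binding protein gene beside Hoxc, was the 1 row of 17 called higher (all rows 1.37%). Evx1 and Evx2, the homeobox genes at the posterior ends of Hoxa and Hoxd, had 0.172 and 0.156 ppm of p400, within the range of the Hox rows.

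All 15 listed cofactors and upstream regulators of Hox genes were found (Meis, Pbx, Pknox and Cdx genes, Cyp26a1, Rarb and Egr2). Their median p400 signal was 0.219 ppm. The ratio of Tip60 to untagged was 1.10 (0.879 to 1.37). That of p400 upon Hdac6 KD was 0.763 (0.643 to 0.906), with 0 rows called (all rows 13.3% lower). That of Hdac6 to untagged was 2.51 (2.04 to 3.11). There 6 of 15 rows were called higher (all rows 23.3%), among them Pbx3, Pbx4, Pknox1, Cdx1 and Cyp26a1. All 19 listed Polycomb subunit genes were found, with a median p400 signal of 0.265 ppm. Their ratio of Tip60 to untagged was 1.34 (1.12 to 1.60) and that of p400 upon Hdac6 KD 0.562 (0.487 to 0.646). For p400, 3 of 19 rows were called lower (Ezh2, Suz12 and Jarid2), near the share of all rows (13.3%). For Hdac6 against untagged the ratio was 2.83 (2.38 to 3.36), with 10 of 19 rows called higher (all rows 23.3%). Ratios against rows of equal GC content are not given for these lists. These lists share the control libraries with the Hox rows, and no test of a difference between lists was made.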

How the data were processed

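ChIP-seq coverage of 7 mouse ESC libraries was analysed. The authors made the deposited signal, per the labels and the study's methods, from reads called with CASAVA 1.8.2, collapsed by sequence with their occurrences kept, and mapped to mm9 with Bowtie (at most 1 mismatch, random placement of multiple matches). They extended the reads, removed those in simple repeats, and summed coverage from −2000 to 2000 bp of each TSS every 20 bp. The study's methods state a single extension length, but isolated reads covered 148 to 149 bp in the Hdac6 files and 299 bp in the others. Hdac6 against untagged thus compares files of unlike read span, through the recovered reads. The Bowtie version, the TSS list and the normalization are not given in the sources used here. The p400 rows were joined by RefSeq identifier and file order. The order held in 9 of 9 pairs of rows that could be tested, but could not be tested for Hoxc6 and Hoxd3, so their p400 values may be exchanged between their rows.

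Reads per window were the summed signal divided by the value of 1 read and its span, rounded. Ratios carry exact conditional 95% intervals, and each row was tested by an exact binomial test conditional on the reads of both libraries (two-sided, p adjusted by Benjamini-Hochberg over all rows, threshold 0.05). Duplicate reads were kept, so intervals and the limits for 0 reads (3 reads) cover counting error only. GC content came from mm9 and starts from GENCODE M1. Full values were given for the lowest and highest paralog number of each cluster and for called rows, except that some genes are not reported here by name. Members and lists were chosen with earlier results of these data known. The other windows, scalings, row sets and thresholds tried are given in the closing section. Python 3.11.15, numpy 2.4.6, scipy 1.17.1 and matplotlib 3.10.9 were used, and the tests were checked on simulated data. The 3 lines of sums at the head of the Flag files were not used.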

Additional observations from a re-analysis of the deposited data

How the results depend on the processing

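No paired analysis was possible because each condition had 1 library. The pooled ratios below carry no replicate error, and the cause of each change was not tested. Counts below are of Hox rows only, and the number of rows with enough reads for the fold rule changes with the setting. Shares over all rows are given above for the main setting and not for these. The counts therefore show how the Hox counts depend on the setting and are not set against all rows. With equal promoter totals the pooled ratio against untagged was 0.820 for Tip60 and 1.16 for Hdac6. Upon Hdac6 KD it was 1.15 for Tip60 and 1.10 for p400. Against rows of equal GC content these ratios were 0.791, 1.03, 1.18 and 1.10. Both ratios upon Hdac6 KD thus passed from below 1 (0.975 and 0.758 in the main setting) to above 1. Both references are taken from all rows, whose reads fell upon Hdac6 KD. A value above 1 is therefore a smaller fall than theirs and no gain in reads. With equal flanks Hdac6 against untagged was 1.81 with 8 rows called higher, and p400 upon Hdac6 KD had 1 row called. Under equal totals and equal GC content, Hdac6 against untagged had 1 and 0 rows called higher, 8 and 6 lower by the fold rule and 13 and 10 higher. Tip60 against untagged had 4 and 3 higher by the fold rule. p400 upon Hdac6 KD had 0 and 0 rows called, 3 and 4 lower by the fold rule and 6 and 8 higher.

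Smaller windows hold fewer reads. The counts named here are those that moved from the main setting. For p400 upon Hdac6 KD the lower counts are not among them. In the main setting 15 rows were lower there by the fold rule and 0 higher. From −240 to 240 bp, the fold rule gave 6 rows lower for Tip60 against untagged, 5 lower and 18 higher for Hdac6 against untagged (7 called), 7 lower and 5 higher for Tip60 upon Hdac6 KD, and 3 higher for p400 (0 called). From −100 to 300 bp it gave 5 lower and 5 higher, 13 higher (5 called), 4 lower and 6 higher, and 4 higher (1 called), in the same order. From −600 to −200 bp it gave 5 lower and 5 higher, 12 higher (1 called), 4 lower and 3 higher, and 3 higher (0 called). There the ratio of Hdac6 to untagged was 1.69. From −1000 to 1000 bp that ratio was 1.801 with 1 row lower by the fold rule. In this window Tip60 against untagged had 1 row called lower and 4 higher by the fold rule, and Hdac6 in the library labelled Tip60 KD 3 lower. The mean signal there was 0.157 ppm over all Hox rows and 0.182 ppm at Hoxc for Hdac6 in the library labelled Tip60 KD, and 0.136 ppm at Hoxa for Tip60 upon Hdac6 KD.

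Stricter thresholds lowered the counts by construction. With 2-fold the counts lower and higher were 6 and 2 (Tip60 against untagged), 8 and 5 (Tip60 upon Hdac6 KD) and 2 and 3 (Hdac6, Tip60 KD), with 1 lower for Hdac6 against untagged and 3 lower for p400. With at least 20 reads they were 5 and 5 (Tip60 against untagged) and 1 and 4 (Hdac6, Tip60 KD), with 1 lower for Hdac6 against untagged and 6 higher for Tip60 upon Hdac6 KD. At an adjusted p below 0.01, 7 rows were called for Hdac6 against untagged and 0 for p400. Row sets chosen after seeing the data were rows near an annotated start, rows with no neighbour, and rows without Hoxd1 or Hoxb4. Near annotated starts, 0 rows were lower for Hdac6 against untagged, and 3 lower and 4 higher in the library labelled Tip60 KD. Without Hoxb4, 1 row was lower for Hdac6 against untagged, and without Hoxd1, 1 row was called for p400. Subtracting the untagged signal left mean Tip60 signals below 0 (−0.00572 and −0.00999 ppm), so no ratio was had. The other 386 recomputed values moved by less than the error of the value (counts by at most 1.5 times).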
